A study of Mus musculus with 6 samples.

Results

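The 7 genes described here carry the route by which peptides are presented to CD4 T cells on MHC class II in the mouse: Cd74, H2-Aa, H2-Ab1, H2-Eb1, H2-DMa, H2-DMb1 and Ciita. They were chosen by name, and their counts were found by Ensembl identifier in single-cell tables of mouse bladder mucosa, in which 14450 genes were listed in all 6 libraries. All 7 were listed in 5 libraries. Ciita was not listed in acute replicate 1, so sums over the genes are given for the other 6.

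MHC class II molecules are pairs of an alpha and a beta chain that are loaded with peptides in endosomes and shown on the cell surface. The invariant chain, encoded by Cd74, fills the groove until proteases cut it away, and the H2-DM heterodimer then exchanges its last fragment for a peptide. Ciita is the co-activator that switches these genes on together. Dendritic cells, macrophages and B cells carry the pathway at rest, and interferon gamma can induce it in other cells, endothelium and epithelium among them.

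The mucosal layer of the bladder of 8-week-old wild type C57BL/6 mice was dissociated with collagenase IV and DNase I and loaded on a droplet instrument (10x Genomics Chromium). Healthy mice, mice 48 hours after cyclophosphamide (CPP; acute) and mice given 4 rounds of CPP over 11 days (chronic) each gave 2 libraries. CPP is an alkylating drug whose urinary products strip the urothelium. Per the study's methods both sexes were used and there were more mice than libraries in each condition, so animals were pooled and every p-value below measures only the spread between these libraries.

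The libraries held 54604109 to 111985678 UMIs (unique molecular identifiers, each counting 1 captured molecule) in 5348 to 15062 barcodes, with a median of 5530 to 9138 UMIs per cell. Any pair of libraries shared 36 to 229 barcodes, 0.673% to 2.28% of the smaller library. Levels are given as CPM, the counts-per-million scale on which the UMIs of all cells of a class in a library are scaled to the same total. The kit reads the 3′ end, so 1 molecule counts once whatever its length and levels of different genes were compared without a length correction. A class with under 20 cells in a library has no level there.

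Cells were grouped by clustering without any gene of the class II pathway. C1q macrophages were the leukocyte sub-clusters in which C1qa, C1qb and C1qc were each found in over 50% of cells, and they numbered 85, 79, 32, 149, 58 and 46 cells in healthy replicates 1 and 2, acute replicates 1 and 2 and chronic replicates 1 and 2, the order used throughout. The other myeloid class lacked C1q and numbered 65, 118, 13, 109, 50 and 34 cells. Its sub-clusters were taken into it by the number of dendritic cell markers found in over 20% of cells, and Cd209a was 1 of the markers counted. They held 3 to 5 such markers and the C1q sub-clusters 2 to 3, with Mgl2 and Cd83 in each of the latter. The lectin gene Cd209a stood at 544 to 1333 CPM, against 3.48 to 31.4 CPM in C1q macrophages. It did not reach that share of cells in the sub-cluster led by haemoglobin genes and Naaa. The other sub-clusters were led by Cd209a and Napsa, by Il1r2 and Cd209a, or by cell cycle genes. NK and T cells numbered 25, 18, 1, 248, 0 and 3. Endothelial cells carried the junction gene Pecam1 at 246 to 829 CPM and numbered 52, 15, 48, 320, 27 and 26. Mixed leukocyte sub-clusters, which also carried urothelial or stromal genes, were kept out of every class by a limit set after the data were seen, and held 0.648%, 0.410%, 0.171%, 0.184%, 0.138% and 0.278% of cells.

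On the GRCm38 build (mm10) with GENCODE annotation, 5 of the 7 genes lie within 197 kb of chromosome 17. In order they are H2-DMa (chr17:34119541-34139101, plus strand), H2-DMb1 (chr17:34153072-34160230, plus), H2-Ab1 (chr17:34257689-34269419, plus), H2-Aa (chr17:34282744-34287823, minus) and H2-Eb1 (chr17:34305867-34316674, plus). Ciita lies at chr16:10480059-10528418 (plus) and Cd74 on another chromosome. An antisense gene, Gm20513, overlaps H2-Eb1, the genes Brd2 and Dexi overlap H2-DMa and Ciita on the other strand, and H2-DMb1 has a close copy beside it, H2-DMb2, so that reads of that pair may have been split between them.

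Class II promoters are known for a module of X and Y boxes read by the RFX, CREB and NF-Y factors that hold Ciita. RefSeq start windows (250 bases before the start to 50 after it, GRCm38.p6) were matched for 4 of the 7 genes, in 5 windows. They are shown because class II promoters are known to share this module. The X1 core was searched as AACNGAT, the X2 core as TGACG and the Y box as GATTGG on both strands, and the last letters of the X1 core are letters with which the X2 core and the Y box can begin. Capitals mark every match in the 150 bases printed, which run up to the RefSeq start.
H2-Aa (chr17:34287824-34287973, minus strand): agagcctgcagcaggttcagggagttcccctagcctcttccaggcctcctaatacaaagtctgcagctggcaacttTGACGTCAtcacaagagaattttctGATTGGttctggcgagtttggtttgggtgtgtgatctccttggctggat
H2-Eb1 (chr17:34305717-34305866, plus strand): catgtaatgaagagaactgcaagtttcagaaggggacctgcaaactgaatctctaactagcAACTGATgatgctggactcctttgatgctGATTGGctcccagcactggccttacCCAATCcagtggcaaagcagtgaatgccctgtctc
H2-DMb1 (chr17:34153041-34153190, plus strand): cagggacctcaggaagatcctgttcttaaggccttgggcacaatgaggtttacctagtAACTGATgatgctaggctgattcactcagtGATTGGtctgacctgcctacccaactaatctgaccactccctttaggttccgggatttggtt
H2-DMb2 (chr17:34145099-34145248, plus strand): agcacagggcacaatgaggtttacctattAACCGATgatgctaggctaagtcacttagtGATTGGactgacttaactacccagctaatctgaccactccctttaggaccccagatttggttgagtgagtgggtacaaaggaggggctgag

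H2-Eb1, H2-DMb1 and its copy H2-DMb2 each held an X1 core followed by a Y box, with 29, 30 and 30 bases from start to start. In H2-Eb1 the X1 core began 89 bases before the start and in H2-DMb1 92 bases before it. H2-Aa held a Y box and the X2 core on both strands, overlapping itself, but no X1 core in these letters. The 2 windows of H2-DMa held neither an X1 nor an X2 core. Among 32851 promoter windows of the same length the X1 core was found in 6.94%, the X2 core in 20.8% and the Y box in 16.1%. An X1 core followed within 25 to 35 bases by a Y box on the same strand was found in 7 windows (0.0213%), 4 of them of H2 genes, with the distance set after the sequences were seen. These matches describe letters only.

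Class II transcripts were concentrated in the myeloid cells. The C1q macrophages and the myeloid cells without C1q together made up 0.702% to 2.24% of the cells of a library and held 55.5% to 88.4% of the UMIs of the 6 genes. Cd74 was the most abundant of the 7 in both classes, followed by the alpha and beta chains, then H2-DM, then Ciita. The classes come from clusters of these same cells, so the differences between classes below are descriptions without a test.

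**Figure D1:**
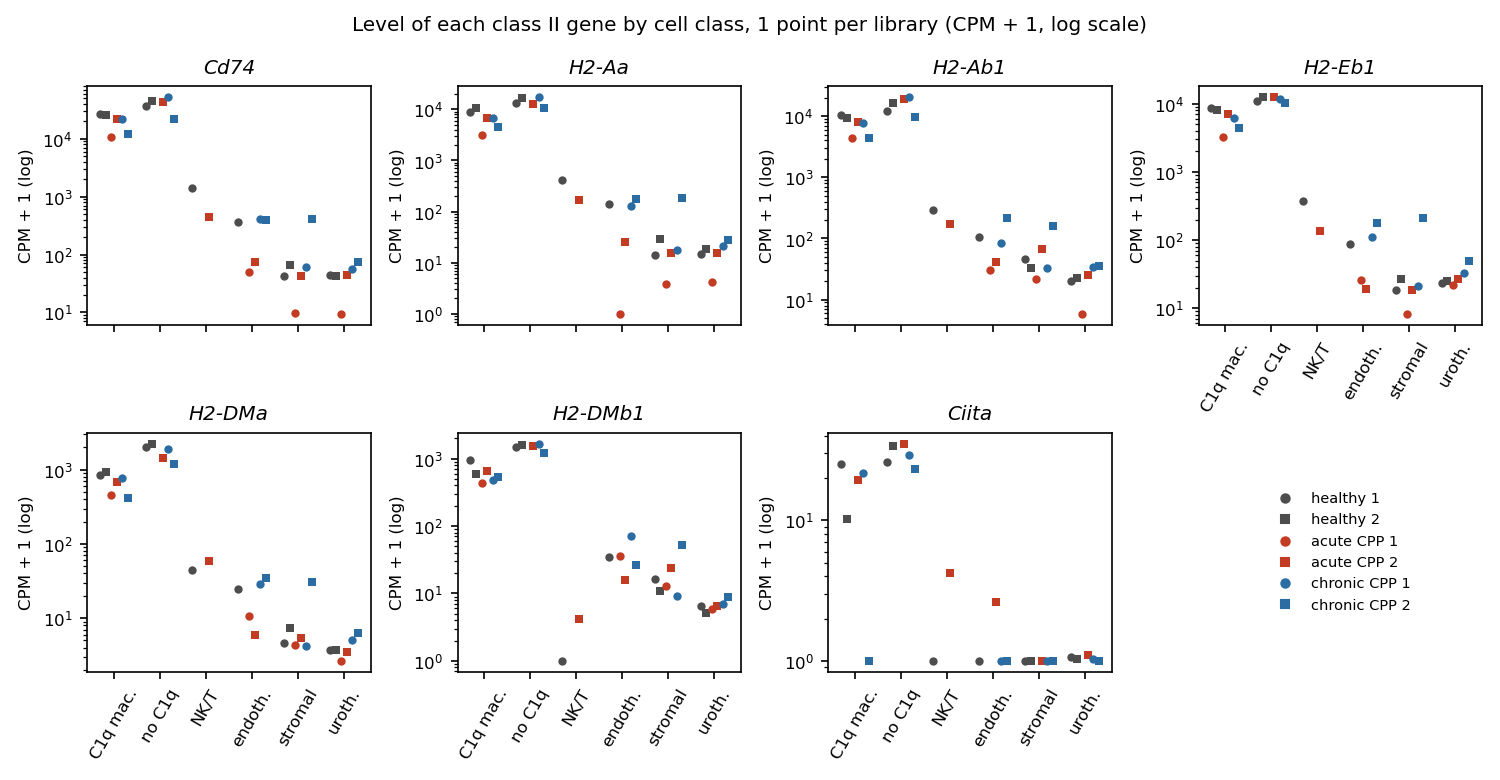
Level of each class II gene in each cell class as CPM + 1 on a log axis, with 1 panel per gene and 1 point per library (colour for condition, shape for replicate). For the 6 genes other than Ciita every library of both myeloid classes lies above every library of the other classes, while Ciita in the C1q macrophages of chronic replicate 2 is at 0.

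In C1q macrophages Cd74 stood at 26846, 25779, 10681, 21530, 22275 and 12195 CPM. In the myeloid cells without C1q it stood at 37091, 45642, 43509, 52985 and 21827 CPM in the 5 libraries with at least 20 such cells. The latter were higher in all 5 libraries, by 1.38-fold to 2.38-fold. The chains were also higher in all 5, by 1.48-fold to 2.60-fold for H2-Aa, 1.20-fold to 2.69-fold for H2-Ab1 and 1.26-fold to 2.34-fold for H2-Eb1. H2-DMa, at 852, 945, 450, 685, 768 and 414 CPM in C1q macrophages, reached 2035, 2232, 1453, 1932 and 1181 CPM without C1q. The gap was 2.12-fold to 2.86-fold for H2-DMa and 1.58-fold to 3.46-fold for H2-DMb1, and these ranges overlap those of the chains.

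Ciita was near the limit of detection. It gave 7, 2, 7, 3 and 0 UMIs in the C1q macrophages of the 5 libraries that list it and 5, 9, 11, 3 and 2 UMIs in the myeloid cells without C1q. In CPM this was 24.3, 9.18, 18.3, 20.8 and 0 in the former and 25.2, 33.0, 34.0, 28.0 and 22.1 in the latter. Outside the myeloid classes 0 to 4 UMIs were counted in any class and library, among them 0 in all stromal cells. Ciita was not tested between conditions, since acute replicate 1 does not list it, and such counts are too few to compare.

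Per molecule of Cd74 the chains did not separate the myeloid classes, while H2-DM was higher without C1q. For each 100 Cd74 UMIs, C1q macrophages held 29.5 to 40.6 of H2-Aa, 34.5 to 40.9 of H2-Ab1 and 27.7 to 36.1 of H2-Eb1. The cells without C1q held 29.0 to 48.1, 33.2 to 43.7 and 22.4 to 47.2 of the same genes. These ranges overlap. H2-DMa stood at 3.17 to 4.21 per 100 in C1q macrophages and at 3.34 to 5.49 per 100 without C1q. Within each of the 5 libraries with both classes the ratio was higher without C1q, for H2-DMa by as little as 3.34 against 3.18 in acute replicate 2 and as much as 5.49 against 3.17 in healthy replicate 1. H2-DMb1 was likewise higher per Cd74 molecule in all 5.

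The rest of the pathway did not follow one order. The lists were the class II chains, peptide loading, regulators, processing, costimulation, CD4 T cell partners, CD74 as a receptor, the interferon gamma axis and class I presentation. The genes at 100 CPM or more in a leukocyte class were 4 of the 4 chain genes listed in all tables, 4 of 4 for loading, 6 of 7 for processing and 0 of 7 regulators. Beside them stood 2 of 6 costimulation genes, 1 of 2 T cell partners, 3 of 4 of the receptor list, 3 of 8 of the interferon gamma axis and 8 of 11 for class I.

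Among the loading genes, H2-Oa, which encodes a chain of the DM inhibitor H2-DO, was at 0 in the C1q macrophages of all 6 libraries and at a mean of 288 CPM in cells without C1q. H2-DMb2 stood at 17.2 against 329 CPM. The processing enzymes ran the other way. The cathepsin genes Ctsb and Ctsd stood at means of 3731 and 1709 CPM in C1q macrophages against 255 and 234 CPM without C1q. Lgmn, an endosomal protease, stood at 1416 against 86.5 CPM, Ctsl at 350 against 21.6 CPM, and Ctss, whose product trims the invariant chain, at 1675 against 984 CPM. Cst3, a cathepsin inhibitor, was the exception at 4584 against 14631 CPM. The C1q macrophages thus held less Cd74 and chain RNA and more protease RNA than the other class.

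**Figure D2:**
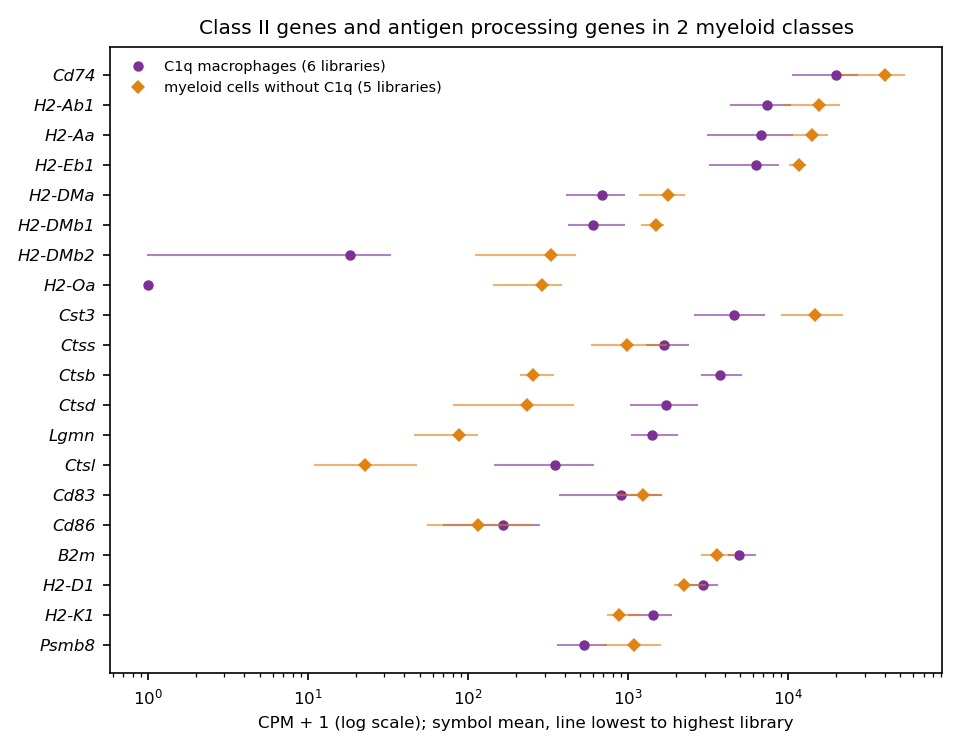
Levels of class II, loading, processing, costimulation and class I genes (1 line each) as CPM + 1 on a log axis, in C1q macrophages (circles) and myeloid cells without C1q (diamonds). Symbols are means over libraries and lines run from the lowest to the highest library. The class II genes, H2-Oa and Cst3 lie further right without C1q, and Ctsb, Ctsd, Lgmn and Ctsl further right in C1q macrophages.

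Of the costimulation genes, Cd83 stood at 899 and 1232 CPM and Cd86 at 165 and 115 CPM in the classes with and without C1q. Of the class I genes only the level of B2m is given here. B2m, the class I light chain, stood at 4901 and 3573 CPM in the myeloid classes, 6477 in NK and T cells, 3280 in endothelial, 1557 in stromal and 552 in urothelial cells. Cd74, by contrast, stood at 260, 105 and 43.9 CPM in the endothelial, stromal and urothelial cells, and the stromal mean was 43.6 CPM without chronic replicate 2. The RFX and NF-Y genes and Creb1, whose products bind the boxes marked above, stood between 5.56 and 46.0 CPM in every class. They did not separate the myeloid classes from the others.

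Log2 levels (pseudocount 1 CPM) were correlated with the mean of the 6 over 32 class and library sums in 7 classes. Leaving the 6 themselves out, the genes that correlated best were Ctss (Pearson's r of 0.964), Alox5ap (0.961), Ms4a6c (0.956), Ly86 (0.953) and Clec12a (0.953). Of the 6, H2-Aa stood at 0.981 and H2-DMb1 below 0.927, so these genes followed the mean more closely than H2-DMb1 did. The sums share libraries and depth, and r is given as a description.

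In C1q macrophages the 6 genes were lower after CPP, but not beyond what the spread between libraries allows to call. Their sum was 56478 and 55352 CPM in the healthy libraries, 22324 and 44904 CPM in the acute and 44121 and 26431 CPM in the chronic ones. Both injured conditions lay below both healthy libraries, and in each of them 1 library was much lower than the other. For 5 of 6 genes both acute libraries lay below both healthy ones, where 10.3% of the 2967 genes tested did so. For 6 of 6 genes both chronic libraries did, where 11.3% of all genes did so. The exception in the acute libraries was H2-DMb1, at 426 and 654 CPM against 942 and 587 CPM.

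H2-Aa, the alpha chain, showed the largest of these differences. It stood at 8962 and 10474 CPM in healthy, 3147 and 6831 CPM in acute and 6740 and 4537 CPM in chronic C1q macrophages. The log2 difference from healthy was −1.02 ± 0.48 (SE; 95% interval −2.11 to 0.08) for acute and −0.96 ± 0.48 (−2.06 to 0.13) for chronic injury, with adjusted p of 0.998 and 0.880 in edgeR's quasi-likelihood test. Cd74 differed by −0.77 ± 0.52 and −0.80 ± 0.53, with adjusted p of 0.998 and 0.916 in the same test. All 4 intervals hold 0.

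The same test called 0 of 6 genes in either comparison, and 0% of the 2967 genes tested. Without adjustment 73 genes had a p under 0.05 for acute and 163 for chronic injury, 0 of the 6 among them. DESeq2 called 2 and 6 genes in all, again with 0 of the 6. The median log2 difference of the 6 was −0.74 for acute and −0.84 for chronic injury, against −0.02 and −0.03 over all genes tested. Leaving out acute replicate 1 brought the acute median to −0.33 and leaving out acute replicate 2 to −1.30, and leaving out chronic replicate 1 brought the chronic median to −1.29. On simulated counts of this class 45.0% of genes changed 4-fold were called. Smaller changes were not simulated.

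**Figure D3:**
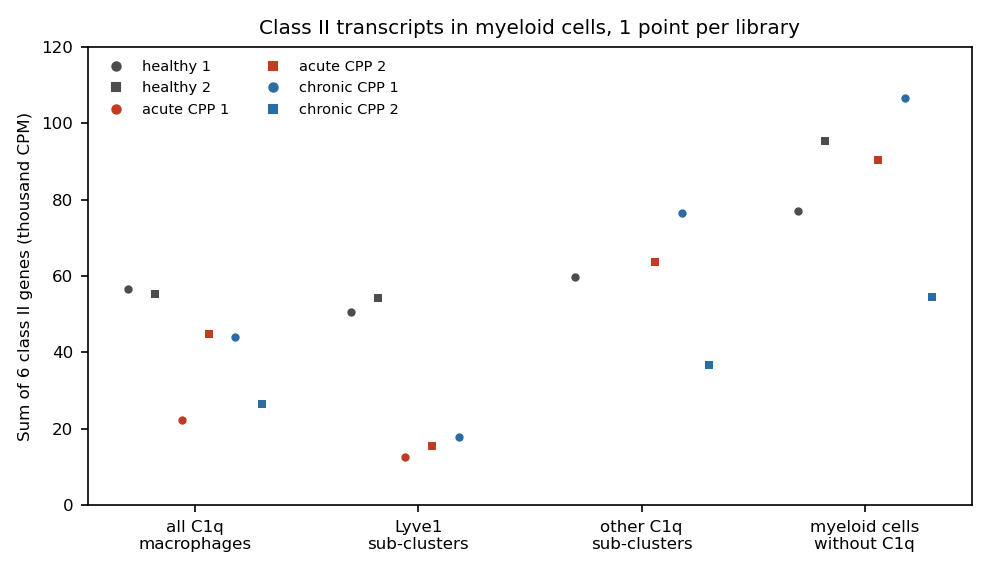
Sum of the 6 class II genes in units of 1000 CPM (axis from 0) for all C1q macrophages, their Lyve1 sub-clusters, their other sub-clusters and the myeloid cells without C1q, with 1 point per library of at least 20 cells. In all C1q macrophages the 4 libraries from CPP-treated mice lie below both healthy libraries, while in the cells without C1q the chronic libraries lie on either side of the healthy ones.

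The lower sums in C1q macrophages went with more cells at the low end. Cells with under 1% of their UMIs from the 6 genes made up 5.88% and 8.86% of healthy C1q macrophages (exact 95% intervals 1.94% to 13.2% and 3.64% to 17.4%, which cover counting error only). They made up 46.9% (29.1% to 65.3%) and 26.8% (19.9% to 34.7%) in the acute libraries. In the chronic libraries they made up 32.8% (21.0% to 46.3%) and 32.6% (19.5% to 48.0%). All 4 injured libraries thus lay above both healthy ones. In the myeloid cells without C1q the share was 0% to 1.83% in every library with a level.

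C1q macrophages were also split by whether they held a UMI of Lyve1 or Folr2, genes of resident tissue macrophages. This split was made after the sums were seen and carries no test. C1q macrophages with a UMI of Lyve1 or Folr2 (40, 64, 26, 61, 33 and 23 cells) had sums of 43708 and 51674 CPM in healthy, 20547 and 16781 CPM in acute and 25197 and 15497 CPM in chronic libraries. All 4 injured libraries lay far below both healthy ones. The C1q macrophages without a UMI of either gene (45, 15, 6, 88, 25 and 23 cells) stood at 68002 and 72179 CPM in healthy, 30996 and 65826 CPM in acute and 72035 and 39236 CPM in chronic libraries. Chronic replicate 1 lay among the healthy libraries, acute replicate 2 just below them and the other 2 far below, with 6 cells behind acute replicate 1. Cells under 1% made up 10.0% and 6.25% of the Lyve1 or Folr2 cells in healthy libraries and 53.8%, 49.2%, 48.5% and 56.5% in the injured ones. Among the cells without either UMI they made up 2.22% and 20% in healthy libraries and 16.7%, 11.4%, 12% and 8.70% in the injured ones. The share was higher with a UMI of these genes in all 4 injured libraries and in healthy replicate 1, and lower in healthy replicate 2.

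The Lyve1 sub-clusters summed to 50625 and 54190 CPM in healthy libraries and to 12498, 15542 and 17894 CPM in acute replicates 1 and 2 and chronic replicate 1. The other C1q sub-clusters did not share this order, with 59611 CPM in healthy replicate 1, 63617 CPM in acute replicate 2 and 76515 and 36582 CPM in chronic replicates 1 and 2, so that only chronic replicate 2 lay below the healthy library. Of the 57 cells of 1 of these sub-clusters 54 came from acute replicate 2, and a sub-cluster of 88 cells among the other C1q macrophages came from that library alone. Library and cell state cannot be told apart there.

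In the myeloid cells without C1q the sum was 77028 and 95290 CPM in healthy libraries, 90504 CPM in acute replicate 2 and 106661 and 54551 CPM in chronic libraries. The chronic libraries lay on either side of the healthy ones. The acute comparison rests on 1 acute library, since acute replicate 1 held 13 such cells, and its test assumes that this library varies like those of the other groups. edgeR called 0% of 3888 genes and 0 of the 6 in both comparisons, with 118 and 203 genes at an unadjusted p under 0.05, and DESeq2 called 0 genes. The median log2 difference of the 6 was 0.01 for acute and −0.20 for chronic injury, and without chronic replicate 1 the chronic median was −0.68. H2-DMa was the only one of the 6 with both chronic libraries below both healthy ones, at 1932 and 1181 CPM against 2035 and 2232 CPM, where 13.8% of all genes lay so. Its log2 difference of −0.57 ± 0.39 had an adjusted p of 0.942 in edgeR's test.

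The share of myeloid cells also varied between libraries. C1q macrophages made up 1.10% and 0.900% of cells in healthy, 0.499% and 1.25% in acute and 0.573% and 0.913% in chronic libraries. Both myeloid classes together averaged 2.09% in healthy, 1.43% in acute and 1.33% in chronic libraries (exact two-sided permutation test over libraries, p of 0.667 and 0.333). With 2 libraries against 2 this test cannot give a p under 0.333. In sums over whole libraries, fewer cells of a class and less RNA per cell cannot be told apart.

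Urothelial cells, the epithelium that lines the bladder, held 8.30% to 33.6% of the class II UMIs of a library through their number, 4781 to 8652 cells. Their level per cell was very low. Cd74 stood at 42.7, 41.0, 8.43, 42.5, 55.2 and 73.3 CPM, which is 0.138%, 0.111%, 0.0487%, 0.135%, 0.156% and 0.460% of the level in all myeloid cells of the same library. The macrophage genes C1qa, C1qb, C1qc and Lyz2, which urothelial cells should lack and which serve here as the level that free RNA in the droplets can give, stood at a median of 0.149%, 0.119%, 0.0606%, 0.169%, 0.202% and 0.394% of their myeloid level. Cd74 and these 4 genes were lowest together in acute replicate 1 and highest together in chronic replicate 2. H2-Aa stood at 0.132%, 0.127%, 0.0555%, 0.154%, 0.179% and 0.394%. Cd74 lay below the highest of the 4 reference genes in 5 of 6 libraries and H2-Aa in all 6. C1qa, C1qb and C1qc mark the C1q macrophages, while the myeloid cells without C1q held 31.5% to 60.3% of the class II UMIs of a library. Expression and free RNA cannot be told apart by these levels, and the part of free RNA was not tested.

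**Figure D4:**
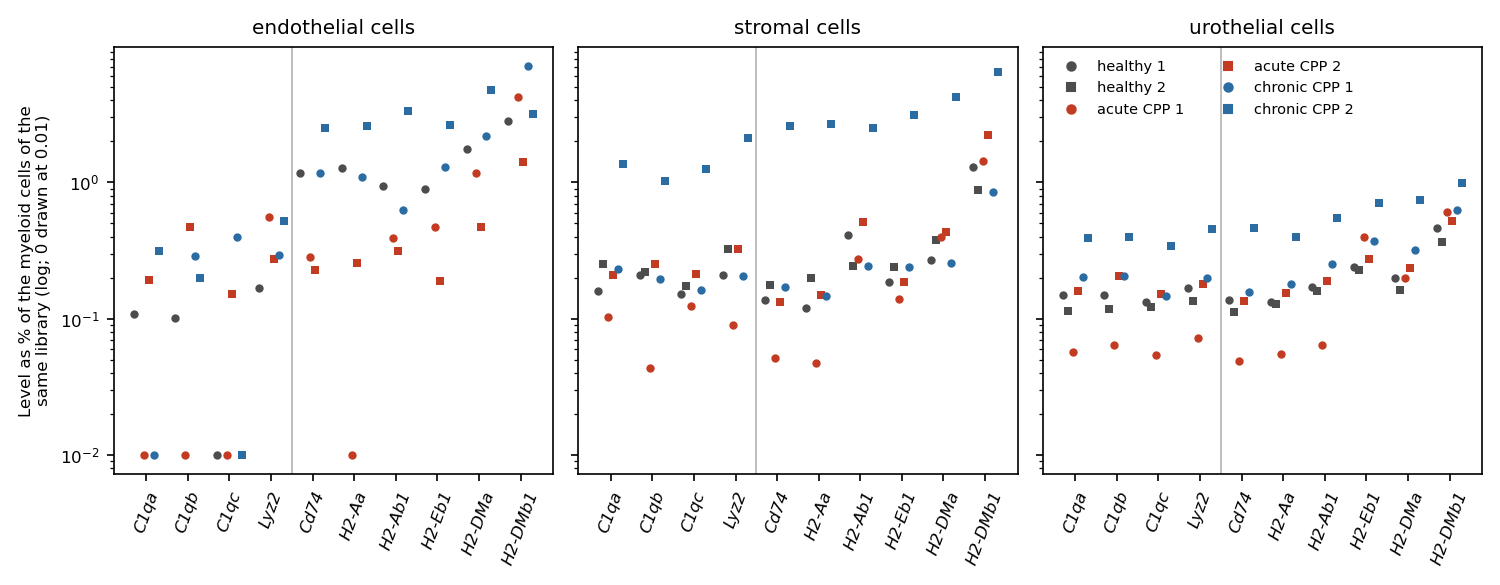
Level of the reference genes C1qa, C1qb, C1qc and Lyz2 (left of the grey line) and of 6 class II genes (right of it) in endothelial, stromal and urothelial cells, as a percentage of the myeloid level of the same library on a log axis, with 1 point per library and 0 drawn at 0.01. In urothelial cells Cd74 and H2-Aa lie near the reference genes of the same library, while H2-Eb1 and H2-DMb1 lie above them.

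H2-Eb1, the I-E beta chain, left that pattern. In urothelial cells it stood at 22.6, 24.4, 20.7, 25.9, 31.7 and 47.6 CPM. Acute replicate 1, in which urothelial Cd74 was far lower than in the other libraries, was close to them in H2-Eb1. Per 100 Cd74 UMIs the urothelial cells held 53.0, 59.5, 246, 61.0, 57.5 and 65.0 UMIs of H2-Eb1, where C1q macrophages held 27.7 to 36.1. The 95% counting interval of the urothelial ratio lay above that of the C1q macrophages in each library. This ratio alone does not set H2-Eb1 apart. Urothelial cells held 44.3 to 60.1 of H2-Ab1 per 100 Cd74 UMIs against 34.5 to 40.9 in C1q macrophages. The same ranges were 5.76 to 19.6 against 3.17 to 4.21 for H2-DMa and 10.2 to 58.5 against 2.14 to 4.31 for H2-DMb1. C57BL/6 mice lack a working I-E alpha chain, so the I-E beta chain is not known to reach their cell surface as a pair.

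**Figure D5:**
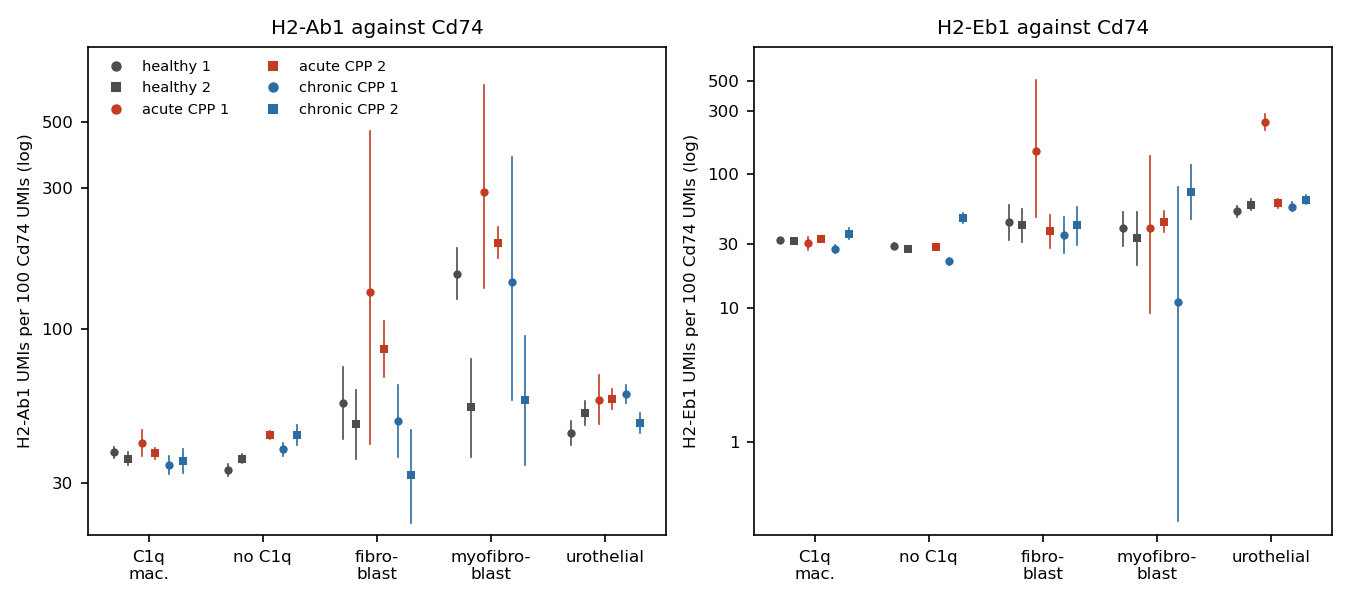
UMIs of H2-Ab1 (left) and H2-Eb1 (right) per 100 Cd74 UMIs on a log axis in 5 cell classes, with 1 point per library and bars for the exact 95% counting interval. H2-Eb1 in urothelial cells and H2-Ab1 in the myofibroblast clusters have every point above those of the C1q macrophages, as does H2-Ab1 in urothelial cells.

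Within the urothelium H2-Eb1 varied more between clusters than Cd74. The highest cluster stood 2.56-fold to 5.01-fold over the lowest for H2-Eb1 and 1.51-fold to 2.76-fold for Cd74, and the ratio for H2-Eb1 was the larger in each of the 6 libraries. H2-Aa and H2-Ab1 reached at most 2.52-fold and 2.40-fold. H2-DMa and H2-DMb1, which had fewer UMIs, reached 7.51-fold in acute replicate 1 and 5.19-fold in healthy replicate 1. A spread of this size was thus not particular to H2-Eb1, and counting error adds to it. In the cluster led by Fam25c, Acer2 and Psca (294 to 869 cells per library) H2-Eb1 stood at 33.9, 54.2, 25.5, 29.6, 40.4 and 57.2 CPM. In the cluster led by Has3, Il33 and Fosl1 (524 to 1205 cells) it stood at 7.42 CPM in acute replicate 1, 29.6 CPM in chronic replicate 2 and 14.3 to 16.1 CPM in the other 4. The first was higher in all 6 libraries, by a median of 2.47-fold (1.84 to 3.61), while Cd74 was higher in 3 of 6 with a median of 1.05-fold. The clusters compared were picked after their values were seen, and the median UMIs per cell were 13976 in the Fam25c cluster and 6974 in the Has3 cluster.

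In urothelial cells H2-DMb1 also exceeded the reference genes. It stood at 5.41, 4.17, 4.93, 5.43, 6.09 and 7.84 CPM in urothelial cells, 0.464%, 0.368%, 0.609%, 0.519%, 0.623% and 0.988% of its myeloid level. Every library was above its own reference range. The same held in each library of stromal cells, at 0.844% to 6.42% of the myeloid level. It also held in each library of endothelial cells with a level, at 1.41% to 7.10% on 3 to 9 UMIs. In NK and T cells H2-DMb1 stood at 0% of its myeloid level in healthy replicate 1 and 0.306% in acute replicate 2. These values rest on 0 and 1 UMI, too few to set against the urothelium. Cd74, H2-Aa, H2-Ab1, H2-Eb1 and H2-DMa all lay above the highest reference gene there. For Cd74 this was 4.59% and 1.39%, against 1.17% and 0.450%.

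After chronic injury all 6 genes were higher in both urothelial libraries than in both healthy ones, where 17.3% of the 13824 genes tested were. The reference genes moved with them, as given above, and their part in the difference was not tested. edgeR called 0 of 6 and 0% of all genes, with 1000 genes at an unadjusted p under 0.05, and DESeq2 called 130 genes and 0 of the 6. H2-Eb1 had the smallest unadjusted p of the 6, with a log2 difference of 0.77 ± 0.25 (95% interval 0.17 to 1.36) and an adjusted p of 0.608 in edgeR's test. The median of the 6 was 0.70, against 0.00 over all genes, and without chronic replicate 2 it was 0.47.

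After acute injury edgeR called 1 gene (0.00723%) and 0 of the 6 in urothelial cells, and DESeq2 called 273 genes and 0 of the 6. The acute libraries differed from each other as given for Cd74, and the median of −0.38 became 0.16 without acute replicate 1 and −1.45 without acute replicate 2. Without acute replicate 2 edgeR called Cd74, H2-Aa and H2-Ab1 as lower, among 105 genes (0.754%), of which 102 were higher and 3 lower. The acute arm was then the 1 library in which the reference genes were also lowest, assumed to vary like the other groups. H2-DMa alone was lower in both acute libraries, at 1.65 and 2.45 CPM against 2.67 and 2.70 CPM, where 15.8% of all genes were.

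In endothelial cells, in which class II genes can be induced, Cd74 stood above the references in healthy replicate 1 and both chronic libraries. Cd74 stood at 365 CPM in healthy replicate 1, at 49.0 and 71.9 CPM in acute and at 417 and 398 CPM in chronic libraries, and healthy replicate 2 held 15 endothelial cells and enters no comparison. Those 15 cells gave 2 UMIs of Cd74 and 6 of all 6 genes, a sum of 123 CPM, which is below the sums of 147 and 175 CPM in the acute libraries and far from the 748 CPM of healthy replicate 1. The acute difference below therefore rests on healthy replicate 1 alone. As a share of the myeloid level this was 1.17% in healthy, 0.283% and 0.228% in acute and at least 1.18% in the chronic libraries. The 4 reference genes had medians of 0.104%, 0%, 0.232%, 0.290% and 0.255% in the same libraries. In both acute libraries Cd74 lay below the highest of the 4, which was Lyz2 at 0.556% in acute replicate 1 and C1qb at 0.469% in acute replicate 2. The values rest on 77, 10, 44, 30 and 47 UMIs of Cd74. In these 5 libraries 3 or more of the 6 genes were found in 0.625% to 14.8% of endothelial cells, with a median of 7.69%. All 6 were found in 0% to 7.69%, with a median of 0%, so few cells held several of the genes.

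Against the 1 healthy library the log2 difference of Cd74 after acute injury was −2.46 ± 0.51 (95% interval −3.52 to −1.40), with an adjusted p of 0.0888 in edgeR's test. The SE, interval and p assume that the lone healthy library varies like the libraries of the other groups, here and in the chronic comparison. H2-Aa, with 29 UMIs in healthy replicate 1 and 0 and 15 UMIs in the acute libraries, differed by −2.94 ± 0.76 with an adjusted p of 0.343 in the same test, and by −7.40 to −2.33 when 1 library was left out. H2-DMb1 did not share this drop in both acute libraries. It stood at 33.1 CPM in healthy replicate 1, at 34.3 and 14.7 CPM in the acute libraries and at 69.4 and 25.4 CPM in the chronic ones, on 3 to 9 UMIs per library. The test called 6 genes (0.108%; lower in 0.0717% and higher in 0.0358%) and 0 of the 5 class II genes tested, H2-DMa having too few UMIs to be tested, and DESeq2 called 7 genes and 0 of the 5. The median of the 5 was −1.98, against 0.02 over all genes, and −0.49 with called doublets kept. Without TMM scaling edgeR called Cd74, where it called 0.125% of all genes, and without a filter on low counts it called Cd74 and H2-Aa, where it called 0.160%. Without acute replicate 2 it called H2-Aa, among 11 of 4408 genes, but that compares 1 library at 0 UMIs with 1 healthy library. After chronic injury 31 genes (0.555%, of which lower 0.251% and higher 0.305%) and 0 of the 5 were called, with a median of 0.44 for the 5, and DESeq2 called 54 genes and 0 of the 5.

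In stromal cells, the fibroblasts and myofibroblasts of the mucosa, Cd74 stood at 42.3, 65.1, 8.91, 41.7, 59.9 and 415 CPM. Chronic replicate 2 stood apart, with 128 stromal cells and all 6 genes at 2.51% to 6.42% of the myeloid level. Of its stromal cells 7.03% held 3 or more of the 6 genes, where the median over libraries was 1.15%. The median stromal cell held none there or in any other library. How much of the sum the 7.03% of cells carried was not measured. The reference genes of chronic replicate 2 stood at 1.03% to 2.12%, against 0.0434% to 0.326% in the other libraries. edgeR called 0 of 6 genes and 0% of 11554 for either injury, with 272 and 512 genes at an unadjusted p under 0.05, and DESeq2 called 18 and 22 genes and 0 of the 6. The median for chronic injury was 1.70, and it was −0.30 without chronic replicate 2. For acute injury it was −0.46, −0.19 without acute replicate 1 and −1.22 without acute replicate 2. Of the 6 genes only Cd74 was lower in both acute libraries, where 15.4% of all genes were. In the chronic comparison 0 of the 6 were higher in both chronic libraries than in both healthy ones, where 19.1% of all genes were.

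H2-Ab1, the I-A beta chain, differed between the stromal clusters. Over all stromal cells it lay above the highest reference gene of its own library in 5 of 6 libraries, and in healthy replicate 2 it stood at 0.242% beside references at 0.175% to 0.325%. In the myofibroblast clusters, a large one led by Car3 and Cxcl14 and one of 129 cells led by Hist1h2ap and Fam64a, it stood at 62.5, 52.7, 43.5, 74.3, 59.4 and 91.6 CPM. In the fibroblast clusters it stood at 307 CPM in chronic replicate 2 and at 7.09 to 45.6 CPM in the other 5. The myofibroblasts were higher in 5 of 6 libraries, chronic replicate 2 with 39 fibroblasts being the exception, with a median of 1.98-fold, while Cd74 was higher in 2 of 6. Per 100 Cd74 UMIs they held 154, 54.2, 290, 196, 144 and 57.4 UMIs of H2-Ab1, where C1q macrophages held 34.5 to 40.9 and urothelial cells 44.3 to 60.1. The ratio of 290 rests on few counts, since all stromal cells of acute replicate 1 held 16 UMIs of Cd74 and 37 of H2-Ab1. H2-DMb1 was likewise higher in the myofibroblasts in 5 of 6 libraries, by a median of 2.03-fold. This comparison too was made after the values were seen.

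The question whether chronic injury moved the genes differently in C1q macrophages and in urothelial cells was put to a fit over both classes with a term for each library. This fit was not among the planned tests, and its p-values take no account of that. The difference of the log2 differences was −1.79 ± 0.44 for H2-Ab1 and −1.70 ± 0.40 for H2-DMa, with adjusted p of 0.0310 and 0.0240 in edgeR's quasi-likelihood test. These 2 of the 6 passed, among 21 of 13317 genes (0.158%). The other 4 lay between −1.69 and −1.39 and did not pass. The urothelial levels behind this difference were 0.0644% to 0.550% of the myeloid level for H2-Ab1 and 0.162% to 0.741% for H2-DMa, beside reference genes at 0.0539% to 0.455%. H2-DMa lay above the highest reference gene of its own library in all 6 libraries and H2-Ab1 in 4 of 6, and the part of free RNA was not tested. Without TMM scaling, without either healthy library or without chronic replicate 2, 0 of the 6 passed, and without chronic replicate 1, 5 passed, among 39 genes (0.285%). Against stromal cells 3 genes passed (0.0419%) and 0 of the 6. For acute injury 26 genes (0.195%) against urothelial cells and 1 gene (0.0140%) against stromal cells passed, and 0 of the 6 in both.

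The other genes of the pathway gave no call either. Over the 9 lists and the 10 comparisons edgeR called 0 genes in either direction. In C1q macrophages the 9 class I genes tested had a median log2 difference of 0.03 for acute and 0.21 for chronic injury, while the 4 class II chain genes had medians of −0.77 and −0.87. The 6 processing genes stood at 0.13 and 0.01, the 3 costimulation genes at −0.61 and −0.90 and the 6 genes of the interferon gamma axis at −0.40 and 0.41. Ifng, the inducer of the axis, was not listed in all tables and has no level here.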

How the data were processed

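Droplet-based single-cell libraries of healthy, acutely and chronically injured mouse bladder mucosa (2 each) were analysed. The authors counted UMIs with Cell Ranger against mm10 (per the labels and the study's methods) and deposited raw UMI counts per gene and cell, 1 table per library, without normalization. Genes were limited to the 14450 listed in all 6 tables, since 1 table ends in a broken line and 2 leave out rare genes.

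Barcodes needed more than 500 genes and a mitochondrial share below 10%, which left 5348 to 13864 per library. Doublets were called with Scrublet in scanpy 1.11.5 at 0.8% per 1000 cells (4.28% to 11.1%), and 1 cluster with over 33.3% of them was left out. Libraries were integrated with Seurat 5.3.0 on 2961 features without pathway genes and clustered with leidenalg 0.10.2 (resolution 0.8), and leukocytes were clustered again. Classes were named from marker lists. A leukocyte sub-cluster was set apart as mixed where its urothelial or stromal marker level passed 2.5 times the usual one, a limit set after the sub-clusters were seen. CPM used the 14338 genes that are neither mitochondrial nor ribosomal.

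For each class with 20 cells or more in a library, the counts of its cells were added up and compared with edgeR 4.0.16 in R 4.3.3 (filterByExpr, TMM, quasi-likelihood test, condition as the only term, Benjamini-Hochberg adjustment over all genes tested, threshold 0.05). DESeq2 1.42.0 and the other alternatives are given at the end. The edgeR script was tested on simulated data with 200 genes changed 4-fold. Exact permutation tests used scipy 1.17.1. Intervals of shares are exact binomial (Clopper-Pearson) and those of ratios of counts likewise exact, and all cover counting error only.

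All 7 genes were named in both myeloid classes and a part of them in each of the other classes. Of the other pathway genes, some of those that reached 100 CPM in a leukocyte class were named, and the rest were given by count. The genes, lists and classes were chosen with earlier results of these data known.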

Additional observations from a re-analysis of the deposited data

Results flagged for a closer look

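For 2 genes the difference between chronic and healthy libraries was itself different in C1q macrophages and urothelial cells. The fit behind this had a term for each library and was not among the planned tests, which its p-values do not take into account. The difference of the log2 differences was −1.70 for H2-DMa and −1.79 for H2-Ab1, C1q macrophages minus urothelial cells. Adjusted p was 0.0240 and 0.0310 in edgeR's quasi-likelihood test. Without TMM scaling, without either healthy library or without chronic replicate 2, 0 of the 6 genes passed. In urothelial cells H2-DMa stood at 2.67 and 2.70 CPM in healthy and at 4.03 and 5.28 CPM in chronic libraries, while in C1q macrophages it stood at 852 and 945 CPM and at 768 and 414 CPM. The urothelial levels of H2-DMa were 0.162% to 0.741% of the myeloid level, and the reference genes C1qa, C1qb, C1qc and Lyz2 stood at 0.0539% to 0.455%, with H2-DMa above the highest of them in each of the 6 libraries. The same 6 genes lay lower in both chronic libraries of C1q macrophages and higher in both chronic libraries of urothelial cells, where 11.3% and 17.3% of all genes tested lay so in each class, a contrast that, for the 4 other genes, did not pass the test of the difference. In the myeloid cells without C1q and the urothelial cells 1 gene, H2-DMa, was lower in the former and higher in the latter in every chronic library, where 13.8% and 17.3% of all genes tested lay so in each class, and this difference was not tested.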

How the results depend on the processing

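No class II gene passed the test between conditions within a class in the edgeR fit given in the report, and the counts of all genes called moved with the setting. With no filter on low counts edgeR called 16 (acute) and 26 (chronic) genes in C1q macrophages, 16 and 14 in the myeloid cells without C1q and 21 and 137 in endothelial cells, 2 of the acute endothelial genes being class II. DESeq2 called 2 and 6 genes in C1q macrophages, 54 in chronic endothelial cells, 273 and 130 in urothelial and 18 and 22 in stromal cells. Without TMM scaling 70 genes were called in chronic and 1 class II gene in acute endothelial cells. Stricter limits on cells (1000 genes in place of 500 and 5% mitochondrial UMIs in place of 10%) gave 3 and 13 genes in endothelial and 0 in acute urothelial cells, and with called doublets kept 2 were called in the latter.

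The sample labels give replicate numbers but do not say whether same-numbered libraries belong together. Per the study's methods the samples were handled and sequenced in batches. The batch of each library is not known here, and its part in the differences was not tested. Deviations of same-numbered libraries correlated at −0.30 to 0.20, so the numbers were not taken as pairs. With the replicate number as a block, edgeR called 1 gene in acute myeloid cells without C1q, 10 in acute endothelial cells, 1 of them class II, and 0 in acute urothelial cells. Under the block the log2 difference turned sign to 0.047 for acute H2-DMb1 in cells without C1q, 0.0654 for acute H2-DMb1, −0.59 for chronic H2-Aa and −0.0881 for chronic H2-Ab1 in endothelial cells, −0.0111 for acute H2-Eb1 in urothelial cells and −0.21 for acute H2-Ab1 in stromal cells. Other turns of sign were of values near 0. They were chronic H2-Ab1 in cells without C1q (0.0796 without TMM, 0.0025 with doublets kept) and acute urothelial H2-Eb1 (−0.0105 without TMM, −0.0044 in DESeq2).

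Leaving out 1 library at a time, the genes called ranged from 0 to 2 (acute) and 0 to 9 (chronic) in C1q macrophages, 0 to 10 and 0 to 19 in cells without C1q, 3 to 15 and 3 to 126 in endothelial cells, 0 to 105 in acute urothelial cells and 0 to 21 and 0 to 3 in stromal cells. Class II genes were called in some of these fits in acute endothelial and acute urothelial cells. Each such fit leaves 1 library in a group, so those calls are not counted here. The same holds for the difference between C1q macrophages and urothelial or stromal cells after chronic injury. Without TMM scaling that difference was called for 0 of the 6 genes against urothelial cells. In cells without C1q the log2 differences ranged from −0.0674 to 0.17 for acute Cd74, −0.0204 to 0.14 for acute H2-Eb1, −1.05 to 0.19 for chronic Cd74, −0.64 to 0.0571 for chronic H2-Aa and −0.72 to 0.35 for chronic H2-Ab1. In chronic endothelial cells they ranged from −0.0676 to 0.43 for H2-Aa and −0.25 to 1.08 for H2-Ab1. In acute urothelial cells the ranges were −2.38 to 0.10 for Cd74, −0.25 to 0.22 for H2-Eb1, −2.12 to 0.37 for H2-Ab1 and −0.0511 to 0.30 for H2-DMb1. In acute stromal cells they were −0.61 to 0.16 for H2-DMa, −0.90 to 0.78 for H2-Ab1 and −0.0918 to 0.87 for H2-DMb1. In chronic stromal cells, where chronic replicate 2 set the sign, they were −0.30 to 3.12 for H2-Aa, −0.60 to 2.56 for H2-DMa, −0.0808 to 3.21 for H2-Eb1, −0.30 to 1.95 for H2-Ab1 and −0.63 to 1.93 for H2-DMb1. In C1q macrophages no class II gene turned sign under any of these settings.

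Thinned to 1000 UMIs per cell, the share of cells with a Cd74 UMI was a mean of 12.4% in NK and T, 11.9% in endothelial, 4.74% in stromal and 4.23% in urothelial cells, against 17.3%, 22.7%, 11.1% and 18.8% at full depth. It was 21.7% in NK and T cells under the stricter cell limits and 99.4% in cells without C1q, both without integration and with doublets kept. The acute minus healthy share of NK and T cells was 0.782 percentage points, and −0.0285 under the stricter limits. The cause of these changes was not tested. Depth left 2967 genes to test in C1q macrophages, 3888 in cells without C1q and 5581 in endothelial cells, against 13824 in urothelial cells.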

Other observations

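The mixed leukocyte sub-clusters, kept out of every class, held the 6 genes at 3845 to 5988 CPM in the 3 libraries with at least 20 such cells, between the myeloid classes and the NK and T cells. NK and T cells summed to 973 and 2545 CPM in the 2 libraries with at least 20 of them, acute replicate 2 and healthy replicate 1. Mural cells, the contractile cells around small vessels, stood at 36.5 and 115 CPM in the 2 acute libraries.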
